A study of Mus musculus with 4 samples.

Results

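The Notch pathway genes described here were 10 mouse genes, namely the receptors Notch1, Notch2 and Notch3, the ligands Dll1, Jag1 and Jag2, the receptor-modifying enzyme Lfng and the target genes Hes1, Hey1 and Hey2. Their accessible chromatin regions were taken from 2 ATAC-seq lists of forelimb buds. A region was assigned to a gene when the protein-coding transcription start nearest to its centre belonged to that gene, or when its centre lay within 2.5 kb of one of the gene's starts. By this rule 78 of 42613 regions at E9.5 and 72 of 46765 regions at E10.5 belonged to the 10 genes.

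Notch receptors sit in the cell membrane and are activated by Delta (Dll) and Jagged (Jag) ligands on a neighbouring cell. Binding leads to cleavage of the receptor, and its intracellular domain enters the nucleus, where it joins the DNA-binding protein RBPJ and Mastermind-like co-activators and switches on Hes and Hey genes. These encode basic helix-loop-helix repressors. Lfng (lunatic fringe) adds sugar to the receptor and changes which ligands it answers to. The pathway is known for its part in somite formation, in the neural tube and in blood vessels, and Jag2 is known from the apical ectodermal ridge of the limb bud.

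ATAC-seq inserts sequencing adapters into open chromatin with a transposase. Wild-type embryos of the NMRI strain were used at both stages, and none carried an allele or had a treatment named in the labels. Each stage had 2 biological replicates, and a replicate was the forelimb pair of 1 embryo. The samples titled E9.5, which the protocol dates to E9.75, kept the trunk tissue next to the buds. No trunk was named for E10.5, where a tissue label adds hindlimb buds that the other labels leave out. Stage and trunk tissue can therefore not be told apart in anything that follows. The authors combined the replicates into 1 list per stage, so that no value here has a replicate error, depth is unknown, and no test between the stages was possible. Intervals on shares are 95% Wilson intervals. They cover counting error only and treat regions as independent. A region open in fewer cells and a region less open in every cell cannot be told apart in such bulk tissue.

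A region is called promoter when its centre lies within 2.5 kb of a protein-coding start and distal otherwise, shared when at least 1 bp of it lies in a region of the other list, and stage-specific when none does. The deposited score is 10 times the negative log10 of the best p-value behind a region. It grows with depth, and values from 3100 are at its limit. Summaries of scores between the stages therefore used the score percentile. It is the rank of a region within the list of its own stage, from 0 to 100. Scores of single regions are printed as deposited, and a lower score at E10.5 need not mean a lower rank. Over the 13728 genes with a promoter region at both stages, the best promoter score had a median ratio, E9.5 over E10.5, of 1.39.

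The sequences below show where 4 of the genes carry the short DNA word that RBPJ is known to bind, since they are both parts and outputs of the pathway. The word GTGGGAA, or TTCCCAC when it lies on the opposite strand, is in capitals. The bases come from the NCBIM37 assembly, which is mm9. The Hes1 window is the centre of the E10.5 promoter region and is the window of a member that held a head-to-head pair of words, GTGGGAA followed 16 bases later by TTCACAC, the reverse of GTGTGAA. The pair begins 81 bases before the second annotated start of Hes1. The Lfng, Hey2 and Notch1 windows are the 250 bases before the most upstream start, read in the direction of the gene, with the word beginning 109, 189 and 34 bases before it. The last Notch1 window is the centre of the highest-scoring E9.5 promoter region of that gene, on the plus strand.
Hes1 promoter region, chr16:30065092-30065391, plus strand: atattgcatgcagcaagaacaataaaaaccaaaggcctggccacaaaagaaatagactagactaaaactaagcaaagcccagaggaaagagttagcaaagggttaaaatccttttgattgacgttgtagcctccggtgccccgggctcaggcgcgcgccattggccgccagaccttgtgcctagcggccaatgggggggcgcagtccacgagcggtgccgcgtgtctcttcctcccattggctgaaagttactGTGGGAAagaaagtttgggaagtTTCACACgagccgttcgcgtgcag
Lfng promoter, chr5:141083045-141083294, plus strand: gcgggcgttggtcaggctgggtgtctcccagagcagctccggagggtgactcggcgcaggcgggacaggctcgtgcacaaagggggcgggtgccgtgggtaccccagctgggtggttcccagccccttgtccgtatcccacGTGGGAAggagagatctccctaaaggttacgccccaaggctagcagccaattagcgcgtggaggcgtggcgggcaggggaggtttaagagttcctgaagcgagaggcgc
Hey2 promoter, chr10:30562608-30562857, minus strand: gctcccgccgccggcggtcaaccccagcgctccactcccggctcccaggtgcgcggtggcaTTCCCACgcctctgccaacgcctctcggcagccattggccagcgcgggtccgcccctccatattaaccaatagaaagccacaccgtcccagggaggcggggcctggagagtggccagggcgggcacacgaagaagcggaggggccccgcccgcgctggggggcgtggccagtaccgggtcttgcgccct
Notch1 promoter, chr2:26372184-26372433, minus strand: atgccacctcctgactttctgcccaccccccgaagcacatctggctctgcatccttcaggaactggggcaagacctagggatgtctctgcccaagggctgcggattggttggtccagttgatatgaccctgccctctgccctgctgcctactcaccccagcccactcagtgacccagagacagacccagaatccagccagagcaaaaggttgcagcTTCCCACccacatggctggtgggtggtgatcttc
Notch1 internal promoter region, chr2:26357853-26358152, plus strand: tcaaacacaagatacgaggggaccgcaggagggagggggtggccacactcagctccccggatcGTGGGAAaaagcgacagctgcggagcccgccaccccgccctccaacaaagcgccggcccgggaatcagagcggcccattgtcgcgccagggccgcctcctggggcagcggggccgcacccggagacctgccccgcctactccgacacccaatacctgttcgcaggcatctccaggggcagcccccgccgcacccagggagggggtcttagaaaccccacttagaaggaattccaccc

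GTGGGAA was sought on both strands in the window from 250 bases before to 50 bases after a start. At the most upstream start it occurred in 4 of the 10 genes (Notch1, Hey1, Hey2 and Lfng), against 5.88% of the 22380 protein-coding genes. When the windows of all annotated starts were searched it occurred in 6 of 10, Jag1 and Hes1 added, against 12.8% of genes. For the head-to-head pair, a gap of 15 to 17 bases was allowed. Either word of the pair could be GTGGGAA, the related spelling GTGAGAA, or the spelling GTGTGAA that was counted in pairs alone. At any start the pair occurred in 2 of 22380 genes, of which Hes1 was 1. In the central 300 bases of the regions GTGGGAA occurred in 12 of 78 member regions at E9.5 (15.4%, all regions 6.99%) and in 13 of 72 at E10.5 (18.1%, all regions 6.54%). At E10.5, 10 of these 13 windows lay at Notch1, Hey1 and Hes1, and many of the windows cover the same bases in both lists. The related word GTGAGAA occurred in 5.13% of member regions at E9.5 (all 4.71%) and in 6.94% at E10.5 (all 4.83%). The words CACGTG and CACGCG, which Hes and Hey proteins are known to bind, occurred at the most upstream start of 2 and 6 of the 10 genes, against 7.78% and 11.6% of all genes. These backgrounds were not matched for GC content. In the 250 bases before the 10 starts it ran from 54.4% (Dll1) to 87.2% (Jag2). Within region centres CACGCG was found in 8.97% of member regions at E9.5 (all 8.39%) and in 8.33% at E10.5 (all 7.35%), so that those shares were near the background. A word is a match of letters and does not show that a protein was bound.

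All 10 genes had a promoter region in both lists. The same was true of 65.1% of protein-coding genes at E9.5, 62.5% at E10.5 and 61.3% at both stages. The genes had between 2 (Jag2) and 19 (Jag1) regions at E9.5 and between 2 (Notch3 and Lfng) and 23 (Jag1) at E10.5, while the median gene had 1 region in each list. These counts are not scaled to the sequence nearest to each gene, which ran from 24.28 kb (Jag2) to 697.5 kb (Jag1), median gene 45.5 kb. Per 100 kb there were 1.57 (Hey2) to 11.9 (Lfng) regions at E9.5, median gene 2.18. At E10.5 there were 2.74 (Hey2) to 12.4 (Jag2), median gene 2.19. Most member regions were distal. Promoter regions made up 16 of 78 at E9.5 (20.5%, interval 13.0 to 30.8, all regions 38.3%) and 16 of 72 at E10.5 (22.2%, interval 14.2 to 33.1, all regions 32.9%). The distal regions had a median distance of 34 kb from the nearest start at E9.5 against 62 kb at E10.5, and the medians were 29.5 and 42.3 kb for all distal regions.

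Stage-specific regions were counted in both directions. Of the 78 E9.5 regions, 34 were E9.5-specific (43.6%, interval 33.1 to 54.6), and the share over all E9.5 regions was 29.9%. Among distal regions the share was 32 of 62 (51.6%, interval 39.4 to 63.6, all distal regions 40.3%). Among promoter regions it was 2 of 16 (12.5%, all promoter regions 13.1%), and both of these belonged to Dll1. Within each class the share of all regions thus lay inside the interval of the members or near their share. The comparison over both classes is not matched for the smaller part of promoter regions among the members (20.5%, all regions 38.3%). In the opposite direction 23 of 72 E10.5 regions were E10.5-specific (31.9%, interval 22.3 to 43.4), close to the 35.0% of all E10.5 regions. The distal share was 23 of 56 (41.1%, interval 29.2 to 54.1, all 49.6%). No promoter region of the 10 genes was E10.5-specific (0 of 16, interval 0.00 to 19.4), against 5.31% of all promoter regions. Both shares were lower among the 50% of regions with the higher scores, with overlap still sought in every region of the other stage: 10 of 41 member regions were E9.5-specific (24.4%, all such regions 10.8%) and 6 of 36 were E10.5-specific (16.7%, all 18.1%).

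**Figure D1:**
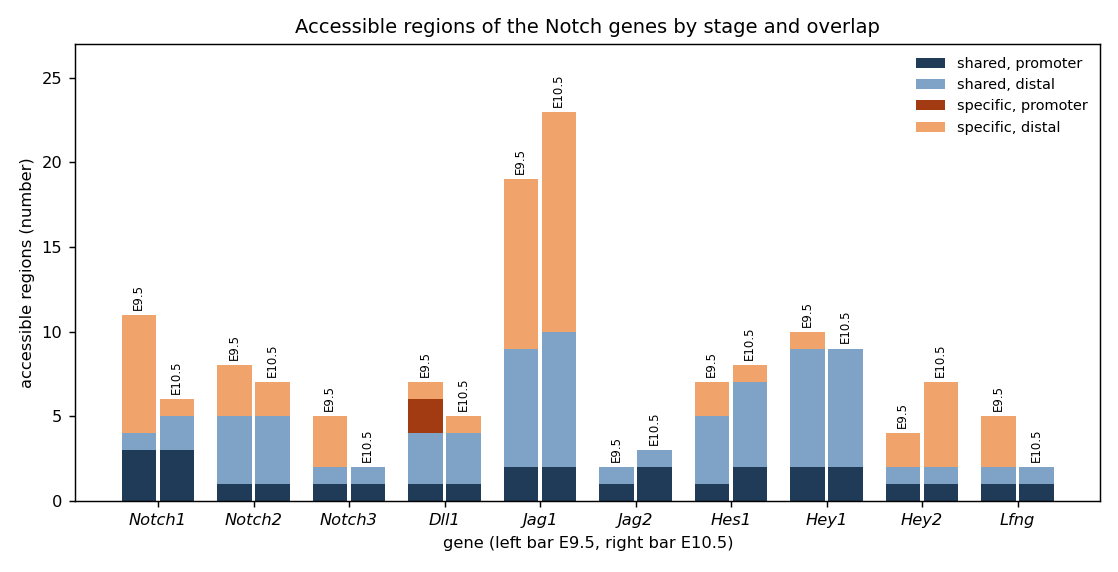
Number of accessible regions of each gene at E9.5 (left bar) and E10.5 (right bar), split into shared and stage-specific and into promoter and distal regions. Jag1 has the tallest bars with 19 and 23 regions, and the receptors, Lfng, Dll1 and Hey1 have fewer regions at E10.5 than at E9.5.

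Jag1 and Hey2 together held 18 of the 23 E10.5-specific regions, and the other 8 genes held 5 among 42 regions (11.9%, interval 5.19 to 25, all regions 35.0%). The E9.5-specific regions were spread more widely, with 12 of 34 at Jag1 and Hey2. The other 8 genes held 22 among 55 regions (40%, interval 28.1 to 53.2, all regions 29.9%). Without Jag1 the E10.5-specific share was 20.4% (10 of 49, interval 11.5 to 33.6). The E9.5-specific share was then 40.7% (24 of 59, interval 29.1 to 53.4). The share over all E9.5 regions lay inside both of these E9.5 intervals. E9.5-specific and E10.5-specific member regions also differed in distance. Of distal E10.5 member regions up to 100 kb from a start, 8 of 35 were E10.5-specific (22.9%, all such regions 43.2%), and beyond 100 kb 15 of 21 were (71.4%, all 65.2%). All 15 of the latter belonged to Jag1 (10) and Hey2 (5). At E9.5 the corresponding shares were 27 of 51 (52.9%, all 39.7%) and 5 of 11 (45.5%, all 42.6%). Regions whose centre lay inside the gene itself were E9.5-specific in 15 of 32 cases (46.9%, interval 30.9 to 63.6) and E10.5-specific in 4 of 24 (16.7%, interval 6.68 to 35.9). Over all regions centred inside a gene they were assigned to, the shares were 26.4% and 27.5%.

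The highest-scoring promoter region of each gene was compared between the lists by its score percentile. At Notch1, Notch2, Notch3, Dll1, Jag2 and Lfng it stood between 13.0 and 36.2 percentile points higher at E9.5 than at E10.5. At Jag1, Hes1, Hey1 and Hey2 it stayed above percentile 96 in both lists, and the difference ran from -0.595 to 2.54 points. Over the 13728 genes with a promoter region at both stages the median difference was 1.26 points (5th to 95th percentile, -10.6 to 28.6). A difference of at least 20 points in favour of E9.5 was found at 4 of the 10 genes (Notch1, Dll1, Jag2 and Lfng) and at 9.05% of all genes. With steps chosen after seeing the data, the counts were 6 of 10 at 10 points (20.7% of all genes) and 2 of 10 at 30 points (4.53%). A region near the top of a list cannot move up, so the stable ranks of the targets and Jag1 do not show equal accessibility.

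**Figure D2:**
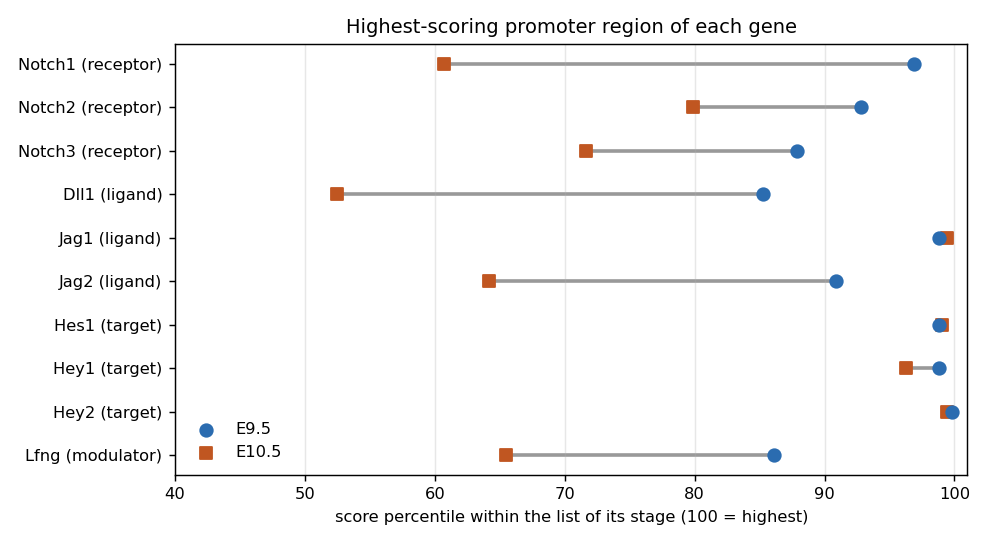
Score percentile of the highest-scoring promoter region of each gene in the E9.5 list (circles) and the E10.5 list (squares), with a line between the stages. Jag1, Hes1, Hey1 and Hey2 lie above 96 at both stages, and the other 6 genes lie lower at E10.5, down to 52.5 for Dll1.

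The 3 receptors had 24 regions at E9.5, of which 13 were E9.5-specific (54.2%, interval 35.1 to 72.1), and 15 at E10.5, of which 3 were E10.5-specific (20%, interval 7.05 to 45.2). Notch1 had 11 regions covering 17049 bp at E9.5 and 6 regions covering 6308 bp at E10.5. Its highest-scoring region at E9.5, at chr2:26355665-26360340, was 4676 bp wide and spanned an annotated start 12.8 kb inside the gene. It scored 2718, at percentile 96.9. At E10.5 the same stretch held 2 narrower regions, which scored 335 and 128 (percentiles 60.7 and 21.5). The promoter region at the most upstream start scored 293 at E9.5 against 99.6 at E10.5, at percentiles 53.5 and 7.55. The third promoter region, 8.89 kb inside the gene, had the higher score in the later list, with 133 at E9.5 and 183 at E10.5.

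Around those promoters Notch1 had 7 E9.5-specific regions, 1 of them 19.06 kb upstream with a score of 268 and the other 6 within the gene. The strongest of the latter, at chr2:26341954-26344992 in an intron, scored 727 and ranked at place 168 among the 12730 E9.5-specific regions. The remaining 5 scored between 114 and 146. The only E10.5-specific region of Notch1 scored 179.8 and lay 122 bp from one of them, a gap smaller than either region. Such near neighbours were found elsewhere too, since 7 of the 34 E9.5-specific and 2 of the 23 E10.5-specific member regions lay within 1000 bp of a region of the other list, against 9.30% and 5.52% of all specific regions.

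Notch2 had 8 and 7 regions, and those in its introns differed between the stages. The promoter region scored 1984 at E9.5 and 727 at E10.5 (percentiles 92.8 and 79.8). Regions 10.93, 12.66 and 26.03 kb inside the gene were E9.5-specific with scores of 116, 161 and 137, and the shared region at 29.95 kb scored 297 at E9.5 against 92.4 at E10.5. Farther into the gene the order was the opposite. The region at 47.77 kb scored 158 at E9.5 against 462 at E10.5. Its neighbour at 49.99 kb scored 142 against 816, 56.5 percentile points apart. The regions at 43.00 and 72.85 kb, with scores of 386 and 672, were present at E10.5 alone. The latter was the second-ranked E10.5-specific region among the 10 genes. A shared region 48.42 kb upstream also scored higher at E10.5, with 525 against 246.

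Notch3 had 5 regions at E9.5 and 2 at E10.5, and both of the latter were shared. Its promoter region scored 1497 and 505 (percentiles 87.9 and 71.6), and a region over an exon 23.45 kb inside the gene scored 183 and 112. The 3 E9.5-specific regions lay 4.52 kb inside the gene and 48.37 and 53.03 kb from its start, beyond its end, with scores of 182, 186 and 302.

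**Figure D3:**
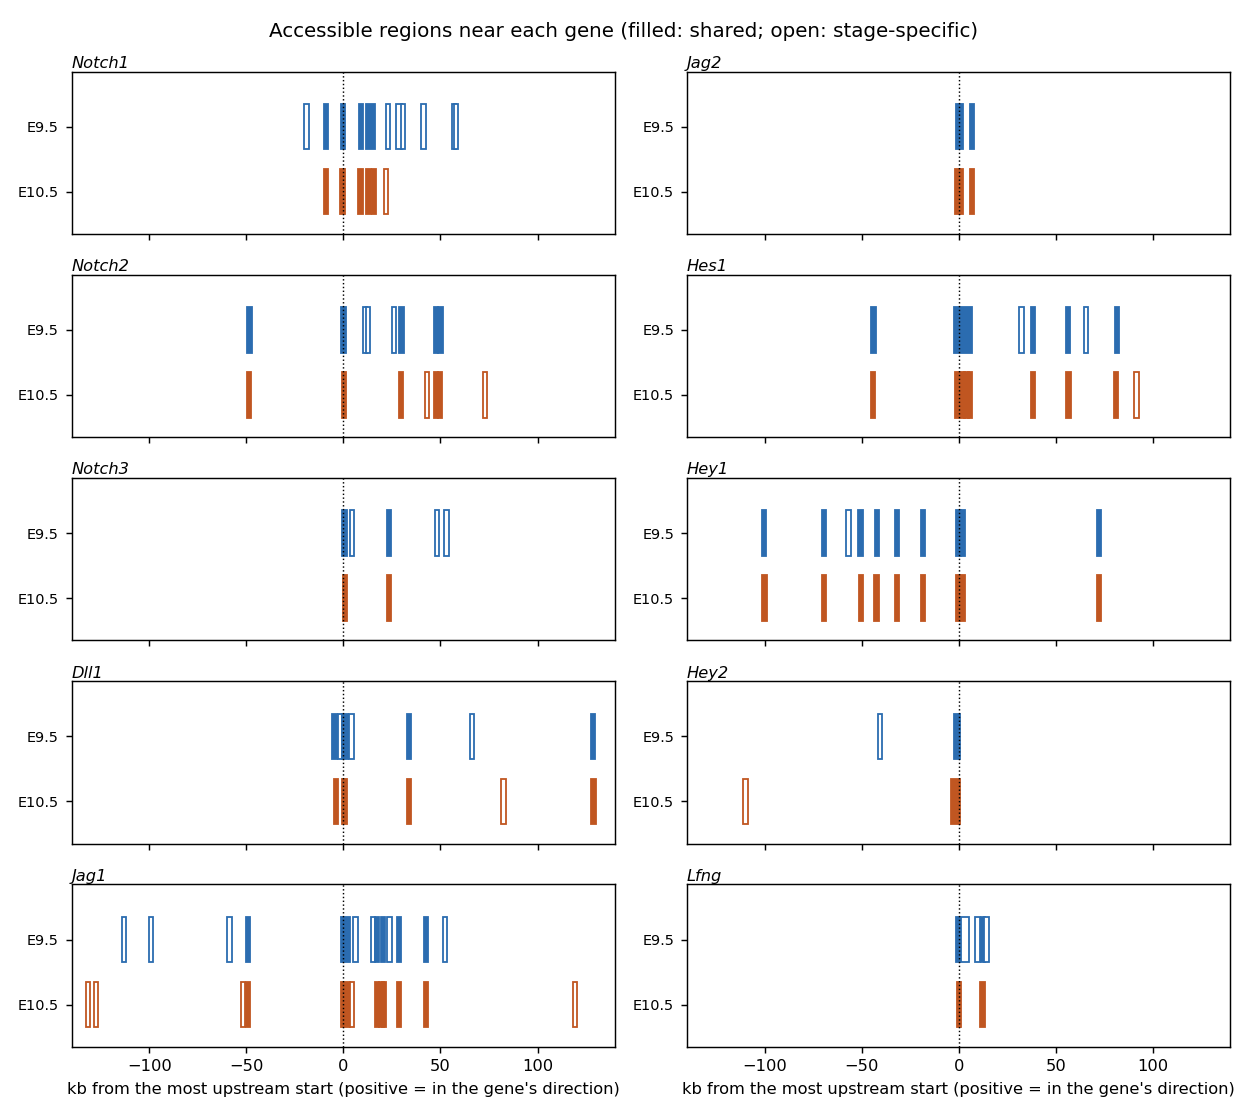
Positions of accessible regions of the 10 genes in kb from the most upstream start, with far regions left out and narrow marks widened to be visible, for E9.5 (upper row) and E10.5 (lower row). Filled marks are shared and open marks are stage-specific, so that the open E9.5 marks inside Notch1 and the matching rows at Hey1 can be compared.

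Among the ligands, Dll1 had the widest gap in promoter rank. Its promoter region scored 1309 at E9.5 and 258 in the later list, at percentiles 85.2 and 52.5. Regions on both sides of it, 1.70 kb upstream and 4.14 kb inside, were E9.5-specific promoter regions with scores of 482 and 291. The distal region 4.63 kb upstream scored 733 and 126, and the one 33.60 kb from the most upstream start, beyond the gene's end, scored 708 and 118. These were gaps of 53.2 and 56.0 percentile points. The latter was the largest in favour of E9.5 between a shared E9.5 member region and its best-scoring E10.5 partner. The far region at 128.65 kb scored 1575 and 424. All 4 shared regions of Dll1 thus stood at least 21.6 percentile points higher at E9.5. Dll1 also had a weak E9.5-specific region of score 164 and a weak E10.5-specific one of score 163, at 66.27 and 82.47 kb.

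Jag2 had the fewest regions and no stage-specific one. A single E9.5 promoter region of 3560 bp with a score of 1769 covered 2 E10.5 promoter regions, which scored 379 and 223. An intronic region 6.71 kb inside the gene scored 237 at E9.5 and 115 at E10.5. Both E9.5 regions stood at least 26.7 percentile points above their best E10.5 partner.

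Jag1 stood apart from the other ligands in number and in distance. The next protein-coding start upstream, that of Btbd3, was 1140 kb away, so the regions of Jag1 came from 697.5 kb of sequence that is nearer to it than to another protein-coding gene. Over this stretch Jag1 had 2.72 regions per 100 kb at E9.5 and 3.30 at E10.5, near the medians of 2.18 and 2.19 over all genes. Its promoter region was 4816 and 4805 bp wide and at the score limit of 3100 in both lists. The second annotated start, inside the gene, had a region 28.69 kb from the first start that scored 284 at E9.5 against 1868 at E10.5, 42.8 percentile points apart.

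Of the 23 E10.5 regions of Jag1, 13 were E10.5-specific, and 10 of these lay more than 100 kb from a start. The strongest, at chr2:137073282-137074769 and 131.65 kb upstream, scored 1058 and ranked at place 124 among 16390 E10.5-specific regions. A neighbour 127.50 kb upstream scored 628. A shared region 276.86 kb upstream scored 174 at E9.5 against 964 at E10.5. The other 11 E10.5-specific regions were weak, with scores from 72.7 to 177. At E9.5 the gene had 10 specific regions with scores from 90.4 to 612, the strongest of them 113.13 kb upstream and 13227 bp from the nearest E10.5 region. The specific regions of the 2 lists were interspersed along the same upstream stretch. Within the gene, E9.5-specific regions were found 6.21, 15.36 and 23.76 kb from the start (scores 373, 90.4 and 276). The region at 42.38 kb, past the gene's end, was shared and scored 518 and 154. The counts depended on which starts compete: 11 and 10 regions were left for Jag1 when starts of all gene types, noncoding ones included, were used.

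The centre of the strongest stage-specific member region of each list is shown here, on the plus strand, because these carry the clearest differences between the lists. Neither window holds GTGGGAA or GTGAGAA, so there are no capitals. The Jag1 window has a GC content of 37.3% and the Lfng window 56.0%.
Jag1 E10.5-specific region, chr2:137073876-137074175: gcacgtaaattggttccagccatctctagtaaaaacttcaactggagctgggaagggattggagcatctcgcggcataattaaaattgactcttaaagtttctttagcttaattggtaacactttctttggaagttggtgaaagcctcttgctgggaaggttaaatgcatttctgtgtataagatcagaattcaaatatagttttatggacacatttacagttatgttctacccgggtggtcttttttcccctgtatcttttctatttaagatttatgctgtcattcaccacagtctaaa
Lfng E9.5-specific region, chr5:141086334-141086633: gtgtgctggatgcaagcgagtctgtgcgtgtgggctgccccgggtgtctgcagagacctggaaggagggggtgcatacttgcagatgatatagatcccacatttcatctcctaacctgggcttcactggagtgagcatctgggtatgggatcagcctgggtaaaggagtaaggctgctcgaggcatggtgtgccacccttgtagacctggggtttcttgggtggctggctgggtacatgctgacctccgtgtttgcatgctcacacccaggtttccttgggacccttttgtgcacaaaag

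**Figure D4:**
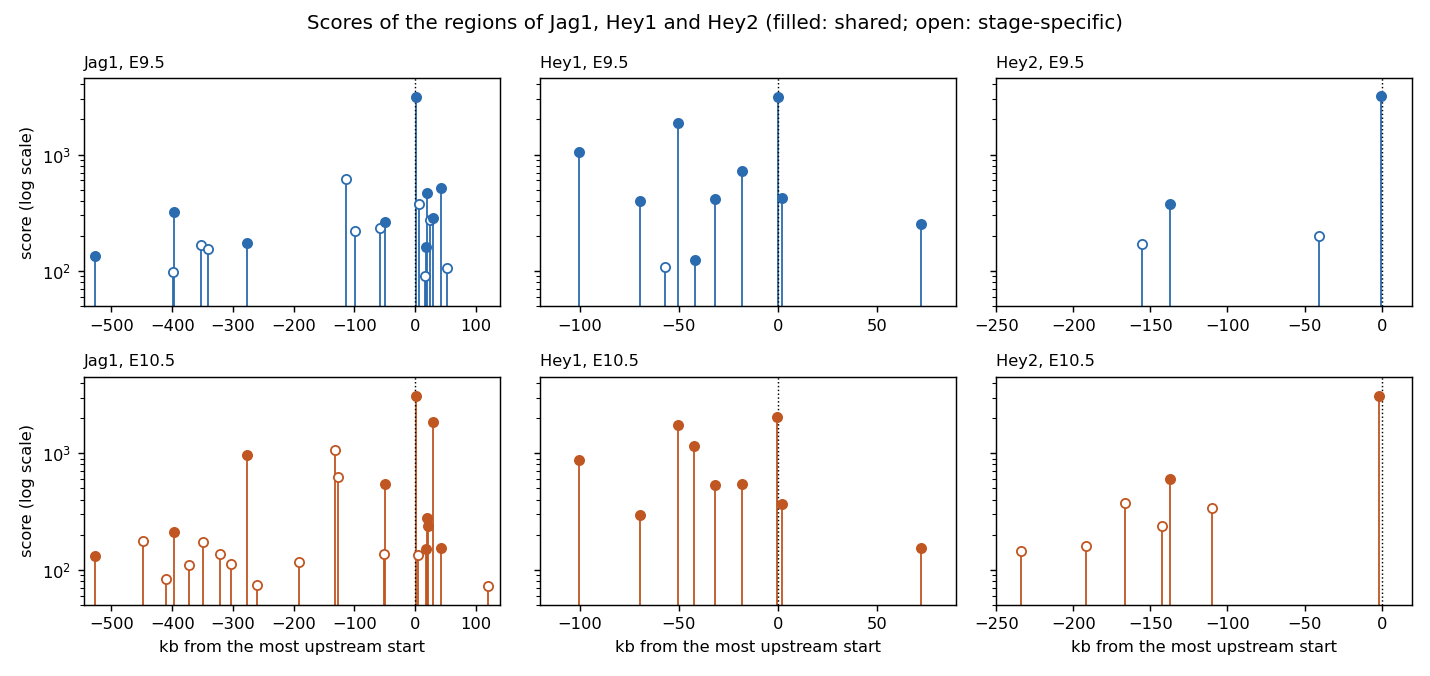
Score, on a log scale, against distance in kb from the most upstream start for the regions of Jag1, Hey1 and Hey2 at E9.5 (top) and E10.5 (bottom). Filled points are shared and open points are stage-specific: Jag1 and Hey2 have open points far upstream at E10.5, and all 9 E10.5 regions of Hey1 are filled.

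Lfng, the fringe enzyme, had 5 regions at E9.5 and 2 at E10.5. Its promoter region scored 1366 and 397 (percentiles 86.1 and 65.5). The strongest E9.5-specific region of all 10 genes began 223 bp beyond that promoter region, at chr5:141084469-141088498. It was 4030 bp wide, centred in an intron of Lfng, scored 1276 and ranked at place 16 among the 12730 E9.5-specific regions. At E10.5 the promoter region ended 233 bp before this stretch and no region was listed within it. A shared region 12.50 kb from the start scored 515 and 204, and the weaker E9.5-specific regions on each side of it scored 108 and 170.1. The latter lay over an exon of the neighbouring gene Ttyh3.

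Of the 21 E9.5 regions of the target genes 5 were E9.5-specific (23.8%, interval 10.6 to 45.1), and of their 24 E10.5 regions 6 were E10.5-specific (25%, interval 12 to 44.9), 5 of them at Hey2. The shares over all regions, 29.9% and 35.0%, lay inside both intervals. Hes1 had a single promoter region of 9552 bp at E9.5, at chr16:30062009-30071560 and at the score limit. At E10.5 the same stretch held 3 regions, which scored 3081, 1322 and 1349. The head-to-head RBPJ pair printed above lies inside the first of these and inside the E9.5 region. Downstream of Hes1, shared regions at 38.37, 56.48 and 81.45 kb scored 267, 354 and 387 at E9.5 against 115, 263 and 177 at E10.5. Their percentiles were 35.5, 5.4 and 23.2 points higher at E9.5. The E9.5-specific region at 65.44 kb scored 897 and ranked at place 78 among E9.5-specific regions. In contrast, the region 43.92 kb upstream scored 173 at E9.5 against 480.3 at E10.5. The other specific regions were weak, with 196 at E9.5 and 176 at E10.5.

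Hey1 had the largest share of shared regions among the genes with more than 3 regions. All 9 of its E10.5 regions were shared, and so were 9 of its 10 E9.5 regions. Its promoter region scored 3100 at E9.5 and 2054 at E10.5, and a second promoter region 424 and 366. Upstream, the region at 50.47 kb scored 1878 and 1757, the one at 100.23 kb 1045 and 875, and the one at 18.27 kb 716 and 540.03. Those at 69.40 and 31.57 kb had 399 and 417 in the earlier list and 292 and 532 in the later one. The percentiles of these 5 regions differed by 0.0522 to 10.6 points. The region 72.11 kb downstream of the start, past the gene's end, scored 251 against 153, 18.0 points apart. The exception was the region 42.10 kb upstream. It scored 124 at E9.5 against 1155 at E10.5, at percentiles 18.2 and 88.7. That was the widest gap between a shared E9.5 member region and its best-scoring E10.5 partner. The single specific region, of score 109 at E9.5, was weak.

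Hey2 had the least E9.5 chromatin of the targets outside its promoter. Its promoter region was at the score limit in both lists (3161 and 3100) and 3224 and 4651 bp wide. At E9.5 the only other regions were 40.65, 137.63 and 155.63 kb upstream, with scores of 199.6, 376 and 169.6. At E10.5 there were 6 upstream regions. The region at 137.63 kb was the shared one, with a score of 606, and the E10.5-specific regions at 109.81, 142.29, 166.73, 192.09 and 234.16 kb scored between 145 and 376. All 5 lay more than 100 kb from the start, and 1 of the 7 E10.5 regions was left for Hey2 when starts of all gene types were used.

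Across all 44 shared E9.5 member regions the median percentile difference was 5.12 points in favour of E9.5, against -0.0874 over the 29883 shared regions of the list. In 15 of the 44 the percentile was at least 20 points higher at E9.5, where 13.1% of all shared regions were, and in 8 it was at least 20 points lower, where 14.3% were. The differences ranged from -70.4 (Hey1, 42.10 kb upstream) to 56.0 points (Dll1, 33.60 kb). The 8 regions with the higher rank at E10.5 belonged to Notch2, Jag1, Hes1 and Hey1. None belonged to Notch1, Notch3, Dll1, Jag2, Hey2 or Lfng.

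**Figure D5:**
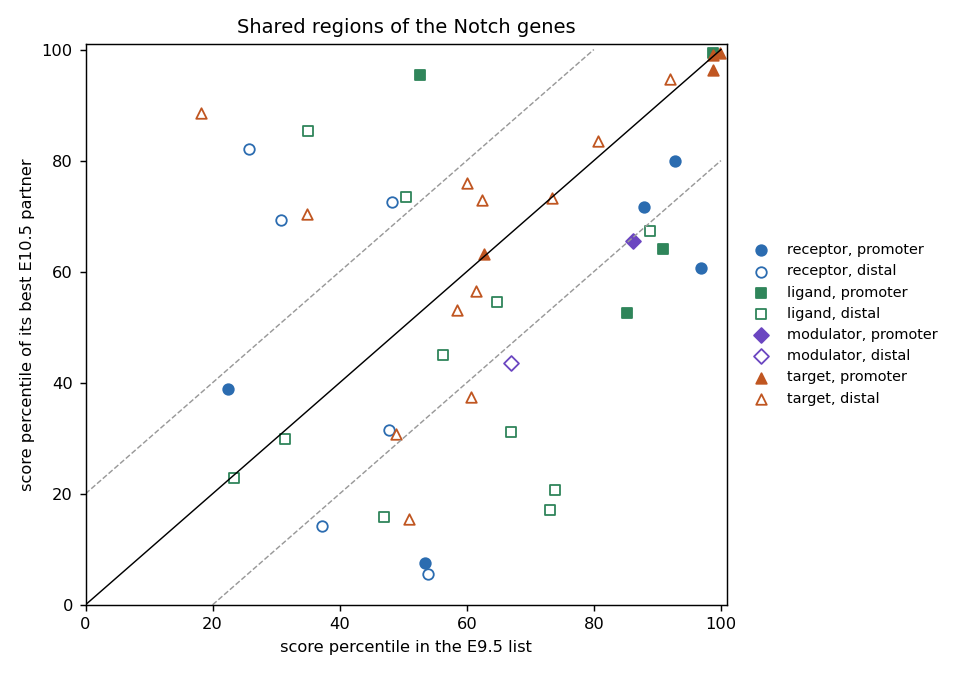
Score percentile of the 44 shared E9.5 regions of the 10 genes against that of their best-scoring E10.5 partner, by role and by promoter (filled) or distal (open). The solid line marks equal percentiles and the dashed lines a difference of 20 points: 15 regions lie on or below the lower dashed line and 8 on or above the upper one.

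Specific distal regions had lower scores than shared ones, among the members and over all regions. E9.5-specific distal member regions had a median score of 168 and shared distal ones 310.5, and at E10.5 the medians were 163 and 263. Over all specific and shared distal regions the medians were 144 and 211 at E9.5 and 154 and 227 at E10.5. The median GC content of the central 300 bases was 53.0% in both E9.5-specific and shared distal member regions of the E9.5 list. In the E10.5 list it was 43.3% in E10.5-specific and 51.7% in shared distal member regions. Over all regions of the 2 specific classes the medians were 51.0% and 44.0%, close to those of the members, and over all shared distal regions 50.7% in each list.

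The wider pathway was followed in 45 further genes. A promoter region was present at E9.5 for 44 of them, at E10.5 for 38 and at both stages for the same 38. Over all protein-coding genes the shares were 65.1%, 62.5% and 61.3%. Of their 181 regions at E9.5, 65 were E9.5-specific (35.9%, interval 29.3 to 43.1, all regions 29.9%), and of their 129 regions at E10.5, 11 were E10.5-specific (8.53%, interval 4.83 to 14.6, all regions 35.0%). Among distal regions alone the shares were 49 of 122 (40.2%, all 40.3%) and 11 of 84 (13.1%, all 49.6%). The E9.5-specific distal share of the wider list was thus at the level of the whole list.

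The other receptors and ligands had 27 regions at E9.5, 9 of them specific (33.3%, interval 18.6 to 52.2), near the 29.9% of all regions. At E10.5 they had 18 regions and 0 specific ones (interval 0.00 to 17.6, all regions 35.0%). The promoter region of the ligand Dll3 (score 479) and that of the ligand Dll4 (342) were listed at E9.5 and absent from the E10.5 list. Dlk1, a Delta-like protein that lacks the usual receptor-binding domain, had 19 regions at E9.5, 6 of them specific, and 13 at E10.5, with promoter scores of 404 and 76.1. The fringe gene Mfng (452) and the protease gene Furin (1019) also had a promoter region at E9.5 alone. The members of the cleavage machinery otherwise had promoters in both lists.

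In the nuclear complex, all 8 genes had a promoter region at both stages (all protein-coding genes 61.3%). Of their E9.5 regions 20 of 58 were specific (34.5%, interval 23.6 to 47.3), near the 29.9% of all regions. Of their E10.5 regions 6 of 46 were (13.0%, interval 6.12 to 25.7, all regions 35.0%). Maml3, a Mastermind-like co-activator, had more regions than any other gene of the wider list in both lists, with 22 at E9.5 (9 specific) and 15 at E10.5 (1 specific). Maml2 was balanced, with 11 regions and 4 specific ones at each stage. Among the genes of endocytosis and turnover, the ubiquitin ligase gene Neurl1a had 17 regions at E9.5, of which 7 were specific, and 10 at E10.5 with none. The promoter region of Dtx1 was weak (104) and E9.5-specific.

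The targets of the wider list included a gene with no region at E10.5. Of their 31 E9.5 regions 15 were E9.5-specific (48.4%, interval 32.0 to 65.2, all regions 29.9%), and of their 16 E10.5 regions 1 was E10.5-specific (6.25%, all regions 35.0%). Hes3 had 3 promoter regions at E9.5, the best with a score of 363, and no region at E10.5. Hes5 had 6 regions at E9.5, 3 of them specific, with promoter scores of 1356 and 113. Heyl had 7 and 2 regions, with 5 E9.5-specific, and promoter scores of 817 and 471. Nrarp, which encodes a feedback inhibitor of the pathway, had 6 and 3 regions, 3 of them E9.5-specific, and promoter scores of 1701 and 790.02. Hes2 had no promoter region at either stage.

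Genes most like Jag1 in their 4 counts (regions and specific regions at each stage) were Pdzrn3, with 18 and 22 regions, and then Gm12824, Hmcn1 and Sox5. The summed absolute difference was 3 for Pdzrn3 and 5 for each of the others, over 4 counts.

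Marker genes of cell types that the tissue could hold were looked up in the same lists. All 10 limb bud mesenchyme genes, all 10 somite genes and all 7 neural tube genes matched had a promoter region in both lists, as had 4 of 7 ridge and ectoderm genes, 2 of 3 hindlimb genes and 3 of 8 endothelial genes. The endothelial genes Cdh5, Tek, Tie1, Pecam1 and Emcn had none at either stage. Over all protein-coding genes 61.3% had a promoter region in both lists, so a listed promoter does not by itself show that a cell type was present. Regions of neural tube genes were E9.5-specific in 25 of 58 cases (43.1%) and E10.5-specific in 6 of 42 (14.3%). For limb bud mesenchyme genes the order was the opposite, with 17 of 76 (22.4%) and 44 of 107 (41.1%). Somite genes had 40.6% and 37.9%, endothelial genes 38.7% and 54.8%, ridge and ectoderm genes 38.2% and 28.1%, and hindlimb genes 38.5% and 36%. The shares over all regions were 29.9% and 35.0%. The part of the attached trunk, and of neural tube or other cells within it, in the values of the Notch genes was not tested.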

How the data were processed

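Per the labels and the study's methods, the authors aligned ATAC-seq reads of 2 replicates per stage to mm9 with Bowtie 1.1.0, called regions per replicate with MACS 1.4 and combined the replicates with MSPC, using a stringent p-value of 1e-10 and a weak p-value of 1e-06. The deposited score is the authors' value, 10 times the negative log10 of the best p-value among the combined regions. Scores from 3100 were treated as the limit, and the lowest scores were 60.52 and 60.44. The lists hold no control background, no depth and no replicate values, so 2 lists were described and no test was made.

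Regions were annotated with GENCODE vM1 on NCBIM37 (22380 protein-coding genes, 70064 starts), and 0 regions ran past a chromosome end. Promoter meant a centre within 2.5 kb of a start. Regions overlapping by at least 1 bp were shared. Percentiles are mid-ranks within a list. Shares have 95% Wilson intervals (scipy 1.17.1), and sequences were read with pysam 0.24.0. Annotation and overlap code was tested on simulated regions.

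The members, the 45 wider pathway genes, the marker genes and the motifs were chosen with earlier results of these data known. All members were named, the regions the results turn on with their values and the rest by counts and ranges. Wider pathway genes were named when a list lacked their promoter region, when they had at least 3 specific regions in a list, or when they had the most regions, and the 3 genes most like Jag1 were named with ties. Of the genes and sequences so chosen, 1 gene and 2 windows are not reported here. Of the marker genes 1 was not matched. The alternatives were other overlap, score, distance and start definitions.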

Additional observations from a re-analysis of the deposited data

How the results depend on the processing

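Counts and shares were recomputed with other overlap, score, distance and start definitions, and 39 of 54 recomputed summary values stayed within 1.5 times the count or inside the interval of the share. The higher-scoring 50% of each list left 41 and 36 member regions at E9.5 and E10.5, with promoter shares of 36.6% and 36.1%. Against the whole other list this 50% had specific shares of 24.4% (all regions 10.8%) and 16.7% (all regions 18.1%). With starts of all gene types 51 and 40 regions were left, with promoter shares of 31.4% and 40% and an E10.5-specific share of 15%. Within 100 kb the E10.5-specific share was 15.7%, and without Jag1, an alternative chosen after seeing the data, it was 20.4%. A promoter distance of 1 kb gave an E10.5 promoter share of 13.9%. With a step of 30 percentile points, also chosen after seeing the data, the best promoter was higher at E9.5 in 2 of 10 genes (4.53% of all genes), and in 6 (10% of all genes) with percentiles taken among promoter regions alone, likewise chosen after seeing the data. Counts of single genes moved by more than 1.5 times in 29 of 100 recomputed values, and no value had a sign that could reverse.

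No paired analysis was possible because the authors pooled the replicates into combined lists, and leaving out a replicate was not run for the same reason. Depth is unknown, so weak regions missing from a list may lie under its threshold. At a score of at least 100 in both lists the specific shares were 44.7% and 29.9%.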
